A study of Mus musculus with 9 samples.

Results

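The comparison described here is between penile tissue of rats that received a sacral neural crest cell transplant after nerve injury and penile tissue of rats with the same injury alone. Its members are 6 of the 9 libraries of the series, 3 per group, chosen by their titles. In the Injury group the major pelvic ganglia, a pair of ganglia beside the prostate that supply autonomic nerves to the penis, were clamped on both sides. Sacral NC animals had the same clamping followed by a graft of sacral neural crest cells, which the series title describes as made from human pluripotent stem cells (hPSC). The 3 remaining libraries, Sham, had the surgery with the ganglia left uninjured, and they entered the fit and are quoted for orientation. Tissue was taken 4 weeks after surgery. The labels do not give the strain, sex or age of the rats, the number of animals per library, or whether Injury animals received a mock transplant. Transplantation and the procedure of transplanting therefore cannot be told apart. Without a statement that libraries came from separate animals, p-values measure only the spread between these libraries.

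The labels contradict each other in places. The tissue field names penile tissue of rats, the cell type field names pluripotent stem cells, and the organism field names mouse. All 21124 gene identifiers are rat Ensembl identifiers. Smooth muscle, endothelial and Schwann cell genes were abundant in every library, and the 5 genes of the pluripotency list that had a row in the tables stayed under 10 reads in every library. The libraries are therefore described as rat penile tissue.

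The erectile tissue of the penis is a network of blood spaces lined by endothelium and framed by smooth muscle within a collagen and elastin matrix. Nerve fibres from the pelvic ganglia relax that smooth muscle by releasing nitric oxide, which raises cyclic GMP. After cavernous nerve injury, loss of smooth muscle and deposition of collagen are well known in rodents. Neural crest cells are the embryonic source of autonomic neurons and of Schwann cells.

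Total counts in the 6 libraries ran from 15442190 to 18283418. Genes of collagen chains took 15.1 %, 17.3 % and 18.6 % of all counts in Injury 1, 2 and 3, against 2.15 %, 5.20 % and 3.74 % in Sacral NC 1, 2 and 3. The skeletal muscle list, contractile genes of striated muscle that penile samples can contain, took 0.321 %, 3.54 % and 0.0364 % in Injury and 0.0190 %, 0.413 % and 0.0303 % in Sacral NC. Injury 2 stood far above the other libraries in muscle content. The group difference of −1.15 percentage points was within the spread (exact two-sided permutation test, p = 0.5), and without Injury 2 it was −0.0245. Immune cell lists (B, plasma, T, natural killer, macrophage, neutrophil and MHC class II genes) took 0.297 %, 0.273 % and 0.295 % in Injury and 0.715 %, 0.304 % and 1.12 % in Sacral NC. All 3 Sacral NC libraries were above all 3 Injury libraries in immune content, Sacral NC 2 only just, and the exact p of 0.1 is the smallest that 3 libraries against 3 allow. Apoe, a single gene of the macrophage list, had 10074 reads in Sacral NC 2 and 7634, 6234 and 6426 in Injury. With the Apoe reads taken out of the immune share, Sacral NC 2 falls within the range of the Injury libraries. The complete separation of the groups in immune content thus rests on this gene. The immune difference was 0.424 percentage points and 0.221 without Sacral NC 3. With collagen genes taken out of the total it was 0.39 and the exact p was 0.4, so the groups then overlapped. On the first principal component of the 6 libraries, which held 55.8 % of the variance, Sacral NC 1 and 3 lay at 65.2 and 65.9, whereas Sacral NC 2 lay at −15.9 among the Injury libraries at −40.5, −70.9 and −3.77.

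**Figure D1:**
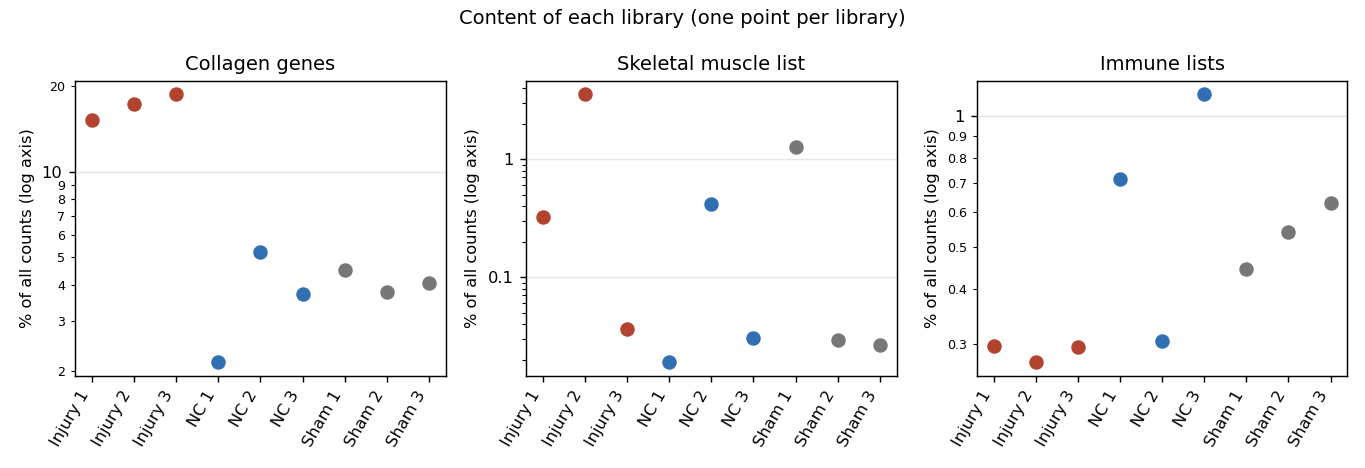
Share of all counts, in percent on log axes, taken by collagen genes, the skeletal muscle list and the immune cell lists, with 1 point per library coloured by group (red Injury, blue Sacral NC, written NC, grey Sham). Collagen separates Injury from Sacral NC completely, Injury 2 is highest for skeletal muscle at 3.54 %, and Sacral NC 2 lies next to the Injury libraries for immune content at 0.304 %.

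Across the transcriptome the transplanted group had less RNA of many collagen, matrix and mitotic genes and of some enzymes that feed collagen synthesis. It had more RNA of many endothelial and interferon response genes and of some MHC class I, natural killer receptor and glucocorticoid response genes. Of 15509 genes tested, 1080 passed an adjusted p of 0.05 in the edgeR quasi-likelihood test with Benjamini-Hochberg adjustment, which is 6.96 % of those tested. These were 506 genes higher in Sacral NC (3.26 %) and 574 lower (3.7 %), and 515 of the 1080 differed by at least 2-fold, 195 upwards and 320 downwards. Over all tested genes the 3 libraries of one group did not overlap the 3 of the other in 4099 genes, or 26.4 %. An unadjusted p under 0.05 in the same test was found for 4133 of the 15509 genes. All these libraries are of bulk tissue, so fewer cells of a type and less RNA per cell cannot be told apart for any gene below.

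The number of calls rested on single libraries. Without Sacral NC 2 it rose to 2033 higher and 1541 lower, 12.9 % and 9.76 % of the genes then tested. Without any other single library it lay between 98 and 308 higher and between 180 and 422 lower. In those fits 1.81 % to 4.65 % of the genes tested were called in either direction. List counts given below for a left-out library are to be read beside these shares. Those of the full fit are to be read beside the 3.26 % of all genes called higher and 3.7 % called lower. With the skeletal muscle score of each library as a covariate 185 genes were called higher and 312 lower, and with a macrophage score, an alternative added after seeing the data, 55 and 85. Of the 1080 called genes 0 changed direction under any of the alternatives run. In 1079 of them the groups did not overlap, so leaving out a library could hardly turn the direction, and this adds little support. Not overlapping was also a condition for naming the genes with the smallest p. Where a called gene below is said to separate the groups, that describes its values and is no further support. Gene levels below are TMM-scaled counts, that is counts scaled to a common library of 16538588, and are listed in the order of libraries 1, 2 and 3 of a group. A scaled count does not correct for gene length and compares 1 gene between libraries only.

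**Figure D2:**
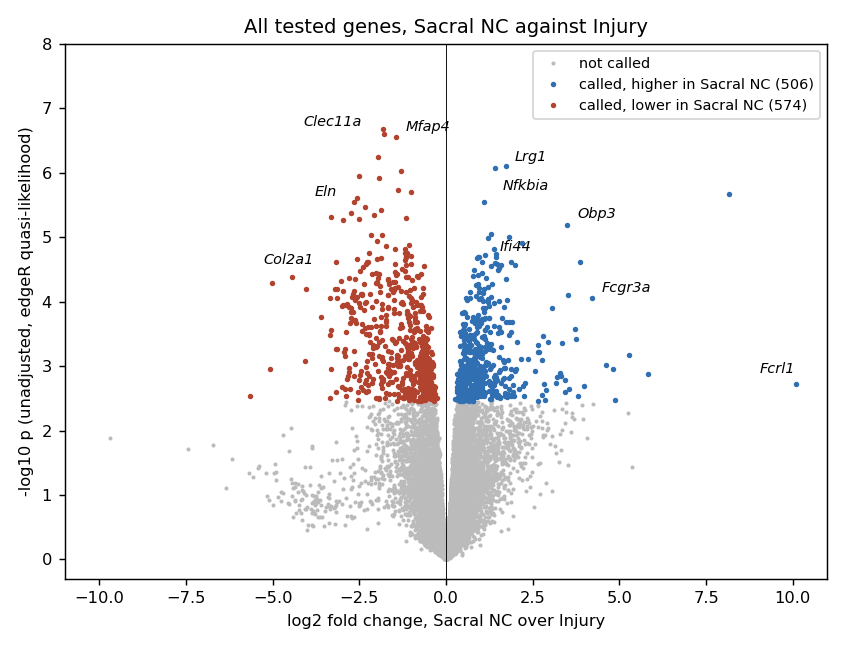
Log2 fold change of Sacral NC over Injury against minus log10 of the unadjusted p for the 15509 tested genes, with the 506 called higher in blue, the 574 called lower in red and the rest in grey. Clec11a and Mfap4 top the lower side, Lrg1 and Nfkbia the higher side, and Fcrl1 and Fcgr3a lie farthest to the right among the genes named on the plot.

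**Figure D3:**
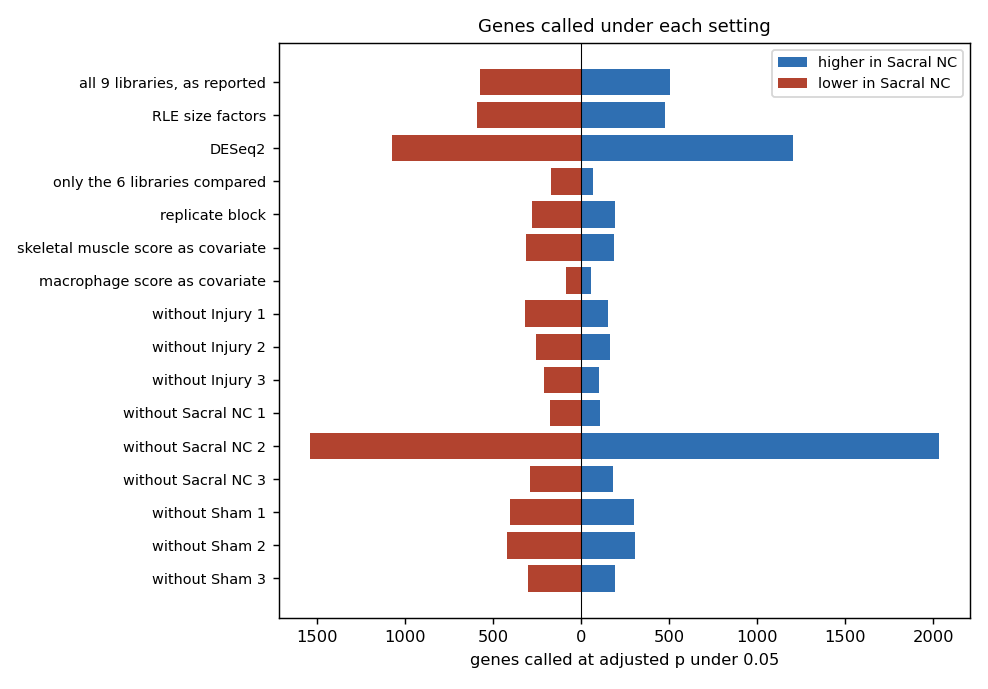
Number of genes called at an adjusted p under 0.05, higher in Sacral NC to the right and lower to the left, for the fit as reported and for alternative settings. Removing Sacral NC 2 raises the calls to 2033 higher and 1541 lower, while removing any other single library lowers them.

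Collagen genes were lower with the transplant. Of the 11 fibrillar collagen genes tested, 8 fell and 0 rose, with a median log2 change of −2.0 against 0.03 over all tested genes. Col1a1 (ENSRNOG00000003897, chromosome 10, 79883622 to 79900624 on an unnamed rat build), the main chain of type I collagen, had 1252424, 1597585 and 1617429 scaled counts in the Injury libraries and 93876, 330830 and 189084 in Sacral NC. The lowest Injury library was thus above the highest Sacral NC library, and Sacral NC fell to 0.137 of the Injury mean (log2 change −2.86 ± 0.43, SE, adjusted p = 0.00957). Sham had 249937, 173627 and 198552. With the macrophage score as a covariate 3 fibrillar collagens were called and the median was −2.10, and with the skeletal muscle score 8 and −2.0. Col3a1, the type III chain of elastic tissues, fell to 0.274 of its Injury level, from 361268 ± 96566 to 99018 ± 34048 scaled counts (SD, n = 3, adjusted p = 0.0121). The type V chains, which nucleate type I fibrils, fell together: Col5a1 to 0.251, Col5a2 to 0.316 and Col5a3 to 0.215 of Injury (adjusted p = 0.00595, 0.00724 and 0.00625). Col2a1, the collagen of cartilage, fell from 142, 213 and 115 to 1.99, 12.1 and 7.23 scaled counts (log2 change −4.44 ± 0.58, SE, adjusted p = 0.00717), and the log2 change was −5.06 without Sacral NC 2.

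Among the 22 other collagen genes tested 7 fell and 0 rose (median log2 change −1.18). The type VI chains, which form beaded filaments around cells, fell to 0.314 (Col6a1), 0.312 (Col6a2) and 0.154 (Col6a3) of Injury, with adjusted p between 0.00868 and 0.00993. Col16a1, a fibril-associated collagen, fell from 10246, 10733 and 11453 to 1999, 4298 and 2765 scaled counts. Basement membrane genes followed in part, with 8 of 23 lower and 0 higher (median −0.54). Col4a1 and Col4a2, the main network chains of basement membranes, fell to 0.36 and 0.371 of Injury (adjusted p = 0.00625 and 0.00711). Nid2, a laminin-binding linker, and Col18a1, the precursor of endostatin, fell to 0.499 and 0.556 (adjusted p = 0.00937 and 0.00965). The number of basement membrane genes called lower was 5 without Injury 2, Injury 3, Sacral NC 1 or Sham 3.

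Genes that fold, cut and cross-link collagen were also lower: 14 of 27 tested fell and 1 rose (median log2 change −0.71). Serpinh1, the collagen chaperone HSP47, had 27030, 35632 and 32759 scaled counts in the Injury libraries and 14577, 14616 and 13968 in Sacral NC. The Sacral NC libraries lay close together, and the level fell to 0.452 of Injury (log2 change −1.14 ± 0.14, SE, adjusted p = 0.00625). P3h1, a collagen prolyl 3-hydroxylase, fell to 0.44, and Pcolce, the enhancer of procollagen C-proteinase, to 0.442 of Injury (adjusted p = 0.00625 and 0.00699). Loxl2, a lysyl oxidase that cross-links collagen and elastin, fell from 6789, 7570 and 8264 to 1028, 1975 and 1442 scaled counts (log2 change −2.35 ± 0.22, SE, adjusted p = 0.00331). The number of collagen processing genes called lower was 5 without Injury 3 and 7 without Injury 2 or Sacral NC 1.

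Of 17 elastic fibre genes tested 6 fell and 2 rose (median −0.52). Eln, elastin itself, had 29410, 47073 and 34816 scaled counts in the Injury libraries and 6379, 4250 and 6988 in Sacral NC, a fall to 0.158 (log2 change −2.66 ± 0.25, SE, adjusted p = 0.00293). The groups did not overlap, and Injury 2 was the highest library. Mfap4, a microfibril-associated glycoprotein, was among the most uniform falls, from 8896, 9836 and 9329 to 3445, 3211 and 3705 scaled counts (adjusted p = 0.00143). Fbln1, fibulin 1, moved the other way and rose 2.21-fold (adjusted p = 0.0266), a call lost without Injury 1, Sacral NC 1, Sacral NC 3 or Sham 3 (adjusted p up to 0.0787). Without any single library other than Sacral NC 2, 2 or 3 elastic fibre genes were called lower, and 8 without Sacral NC 2.

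Matricellular and activated fibroblast genes gave 7 falls and 0 rises among 25 (median −0.95). Sparc, a collagen-binding matricellular protein, had 453811, 476223 and 542920 scaled counts in the Injury libraries and 85020, 170092 and 128696 in Sacral NC (log2 change −1.94 ± 0.25, SE, adjusted p = 0.00711). Ccn4, a Wnt-induced secreted protein, fell to 0.169 of Injury (adjusted p = 0.00625). Bgn, the proteoglycan biglycan, and Thbs2, thrombospondin 2, fell to 0.456 and 0.264 (adjusted p = 0.02 and 0.0232). The Bgn call was lost without Injury 1, Injury 2, Injury 3, Sacral NC 1 or Sacral NC 3 and the Thbs2 call without Injury 2, Injury 3, Sacral NC 1 or Sacral NC 3 (adjusted p up to 0.0744 and 0.0802). Without Injury 2, Injury 3 or Sacral NC 1 only 2 genes of the list were called lower, without Sacral NC 3 there were 3, and without Sacral NC 2 there were 11.

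Matrix proteases gave 5 falls and 1 rise among 24 (median −0.60). Adam12, a metalloproteinase of activated mesenchyme, had 412, 1381 and 485 scaled counts in the Injury libraries and 29.8, 71.6 and 84.7 in Sacral NC. Injury 2 was the highest by far, and without it the log2 change moved from −3.61 to −2.85. Adamts7 was even in Injury (419, 417 and 414) and lower in each Sacral NC library (207, 236 and 252, adjusted p = 0.00717), and Adamts12 fell to 0.447 of Injury (adjusted p = 0.00625). Mmp14, the membrane collagenase, fell to 0.377 (adjusted p = 0.023), a call lost without Injury 3 or Sacral NC 1 (adjusted p up to 0.0886). The number of proteases called lower was 3 without Injury 3 or Sacral NC 1 and 9 without Sacral NC 2.

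Among cartilage and tendon regulators 1 of 15 fell and 1 rose, against 3.7 % of all genes called lower and 3.26 % higher. Tnmd, tenomodulin of tendon cells, had 8318, 9068 and 10306 scaled counts in the Injury libraries and 736, 3449 and 1493 in Sacral NC, with Sacral NC 2 the highest of its group (adjusted p = 0.0314). Chad, a cartilage leucine-rich protein, rose from 856, 431 and 1127 to 1645, 4239 and 2613 (adjusted p = 0.0406). Both calls were lost in most leave-outs, Tnmd without Injury 1, Injury 2, Injury 3, Sacral NC 1, Sacral NC 3, Sham 2 or Sham 3 and Chad without Injury 1, Injury 2, Injury 3, Sacral NC 1, Sacral NC 3, Sham 1, Sham 2 or Sham 3 (adjusted p up to 0.112 and 0.109). The Tnmd log2 change was −3.05 without Sacral NC 2. Chad reads cannot be separated from those of Acsf2, which overlaps it.

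Enzymes that supply glycine, proline and folate units gave 6 falls and 1 rise among 21 (median −0.43). Aldh1l2, a mitochondrial folate enzyme, had 1499, 2472 and 1903 scaled counts in the Injury libraries and 151, 446 and 241 in Sacral NC (log2 change −2.81 ± 0.37, SE, adjusted p = 0.00724). Aldh18a1, which makes the proline precursor, fell to 0.358, Phgdh, the first enzyme of serine synthesis, to 0.322, and Psat1, the next enzyme, to 0.268 of Injury (adjusted p = 0.00709, 0.00752 and 0.00839). Every one of these 4 kept its call with any single library left out. Of 29 endoplasmic reticulum chaperone and stress genes 5 fell and 0 rose, against 3.7 % of all genes called lower. The median of the list was −0.01. The 5 included Kdelr3 and Kdelr2, receptors that return proteins to the reticulum (0.417 and 0.613 of Injury), Creb3l1, a transcription factor of secretory cells (0.493), and Sec24d, a coat protein of export vesicles (0.577). Kdelr3 is overlapped by Ddx17, which has more reads. The calls of Kdelr2, Creb3l1 and Sec24d were lost without Injury 3 or Sacral NC 1, those of Kdelr2 also without Sacral NC 3 and of Sec24d also without Injury 2 or Sham 3 (adjusted p up to 0.0611, 0.0811 and 0.103).

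Mitotic genes fell together, with more members called than in any of the other lists examined. Of 40 tested, 33 fell and 0 rose, all 40 had a log2 change below 0, and the median was −2.25. Prc1, a midzone protein of cytokinesis, had 468, 796 and 411 scaled counts in the Injury libraries and 72.6, 101 and 77.5 in Sacral NC, and it fell to 0.15 of Injury (log2 change −2.74 ± 0.27, SE, adjusted p = 0.0036). Injury 2 was the highest library for Prc1, and the other Injury libraries were also far above all Sacral NC libraries. Top2a, the topoisomerase of dividing cells, fell from 599 ± 231 to 66.2 ± 15.9 scaled counts (SD, n = 3, adjusted p = 0.00625). Ncaph, a condensin subunit, and Aspm, a spindle pole protein, fell to 0.205 and 0.2 of Injury (adjusted p = 0.00625 and 0.00625). Cenpt, a kinetochore protein outside the list, fell from 47.5, 76.8 and 52.8 to 4.97, 5.04 and 7.23 scaled counts (adjusted p = 0.00366). The count of mitotic genes called lower was 17 without Sacral NC 1 and 23 to 36 without any other single library. It was 25 with the skeletal muscle score as a covariate and 4 with the macrophage score, where the median was −1.93. The list took 0.0401, 0.056 and 0.0355 % of all counts in Injury and 0.0126, 0.0177 and 0.0139 % in Sacral NC.

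Among DNA replication genes there were 8 of 39 lower and 1 higher (median −0.45), against 3.7 % and 3.26 % of all genes. Tk1, thymidine kinase of S phase, had 230.1, 304 and 199 scaled counts in the Injury libraries and 44.8, 45.4 and 37.2 in Sacral NC (log2 change −2.52 ± 0.21, SE, adjusted p = 0.0021). Uhrf1, which maintains DNA methylation at replication, Mcm5, a helicase subunit, and Tyms, thymidylate synthase, fell to 0.195, 0.447 and 0.625 of Injury (adjusted p = 0.00752, 0.00717 and 0.00866). These 4 calls held with any single library left out. Tk1 is overlapped by Syngr2, a gene with more reads. The list count was 5 without Injury 2 or Sacral NC 1 and 13 without Sacral NC 2, where 9.76 % of all genes were called lower.

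Other genes named for their small p-values also fell. Clec11a, a secreted bone growth factor of stromal cells, had 3143, 3051 and 3210 scaled counts in the Injury libraries and 969, 809 and 876 in Sacral NC (753, 556 and 616 in Sham). The 3 libraries of each group lay close together, and Sacral NC fell to 0.282 of Injury (log2 change −1.83 ± 0.12, SE, adjusted p = 0.00143). C1qtnf2 and C1qtnf6, secreted proteins with a C1q-like domain, fell to 0.29 and 0.17 of Injury (adjusted p = 0.00143 and 0.00293). Cgref1, a secreted growth regulator, fell to 0.258, Ppic, the secretory prolyl isomerase cyclophilin C, to 0.407, and Gpx7, a peroxidase of the endoplasmic reticulum, to 0.494 of Injury (adjusted p = 0.00209, 0.00209 and 0.00274). Igdcc4, an immunoglobulin superfamily membrane protein, fell to 0.381, Nkain1, which interacts with the sodium pump, to 0.273, and Nt5dc2, a nucleotidase-domain protein, to 0.26 of Injury (adjusted p = 0.00274, 0.0035 and 0.0021). Nt5dc2 is overlapped by Stab1, which has more reads. All 9 calls in this paragraph held with any single library left out. Thy1, a surface protein of fibroblasts, neurons and T cells, fell from 4398 ± 454 to 1956 ± 169 scaled counts (SD, n = 3, adjusted p = 0.00366), and it was the only T cell list gene called among 17.

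Genes of nerve fibres, Schwann cells and trophic signalling were mostly not called. Of 18 nerve fibre genes 1 rose and 2 fell, of 22 Schwann cell and myelin genes 0 rose and 2 fell, and of 25 neurotrophic genes 1 rose and 3 fell. These are 16.7 %, 9.09 % and 16 % of the members, against 6.96 % of all genes tested. Ret, the signalling receptor for GDNF family ligands, had 403, 639 and 532 scaled counts in the Injury libraries and 122, 262 and 117 in Sacral NC, with Sacral NC 2 nearest to Injury (adjusted p = 0.0274). Its co-receptor Gfra1 fell to 0.658, and Ntrk2, the receptor for BDNF, to 0.488 of Injury (adjusted p = 0.033 and 0.0151). Il6st, the shared receptor subunit gp130, rose 1.59-fold (adjusted p = 0.0358). Gjc3, a Schwann cell connexin, fell to 0.385 (adjusted p = 0.0385), and Ddc, aromatic amino acid decarboxylase, fell to 0.297 from 43.6 ± 21.2 scaled counts (SD, n = 3, adjusted p = 0.0467). Npy, neuropeptide Y of sympathetic fibres, rose from 3.24, 3.44 and 2.03 to 38.8, 6.05 and 51.6 (adjusted p = 0.0429). Th, tyrosine hydroxylase of the same fibres, and Vip, a peptide of parasympathetic fibres, had at most 5 reads in any of the 6 libraries, so a difference was not detectable at this depth. Each of these calls was lost in some leave-outs, Ntrk2 only without Injury 2 or Injury 3, Ret without Injury 2, Injury 3, Sacral NC 1, Sacral NC 3 or Sham 3, Gfra1 without Injury 1, Injury 2, Injury 3, Sacral NC 1, Sacral NC 3, Sham 2 or Sham 3, Gjc3 without Injury 1, Injury 3, Sacral NC 1, Sacral NC 3, Sham 1, Sham 2 or Sham 3, Ddc without Injury 1, Injury 2, Sacral NC 1, Sacral NC 3, Sham 1, Sham 2 or Sham 3, and Npy and Il6st when any single library other than Sacral NC 2 was left out. The adjusted p then reached 0.0602 for Ntrk2, 0.0962 for Ret, 0.122 for Gjc3 and 0.141 for Npy.

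Of the 20 neural crest genes tested only Hoxb7, a posterior homeobox gene, was called, against 6.96 % of all genes tested. It had 90.8, 125 and 80.2 scaled counts in the Injury libraries, 239, 176 and 174 in Sacral NC and 175, 212 and 182 in Sham (adjusted p = 0.0314), and the call was lost without Injury 1, Injury 3, Sacral NC 1, Sacral NC 3, Sham 1 or Sham 3 (adjusted p up to 0.105). Reads were assigned to rat genes, so RNA of human grafted cells was not measured here as such. Pericyte genes gave 2 falls among 11, against 3.7 % of all genes called lower. Ndufa4l2, a hypoxia-regulated mitochondrial protein abundant in pericytes, fell to 0.276 of Injury (adjusted p = 0.00534), and Shmt2 overlaps it. Heyl, a Notch target, fell to 0.652 (adjusted p = 0.0481), a call lost without Injury 1, Injury 2, Injury 3, Sacral NC 3, Sham 1, Sham 2 or Sham 3 (adjusted p up to 0.133).

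Endothelial genes were higher with the transplant. Of 25 tested, 13 rose and 0 fell, all 25 had a log2 change above 0, and the median was 0.59. Kdr, the main VEGF receptor of endothelium, had 803, 936 and 859 scaled counts in the Injury libraries, 1742, 1491 and 2101 in Sacral NC and 1431, 1506 and 1528 in Sham. Each Sacral NC library exceeded each Injury library (log2 change 1.04 ± 0.13, SE, adjusted p = 0.00625). Tek, the angiopoietin receptor, rose 1.94-fold, Mmrn2, an endothelial matrix protein, 2.32-fold, and Erg, an endothelial transcription factor, 1.61-fold (adjusted p = 0.00839, 0.00897 and 0.00839). Pecam1, the junction protein CD31, had 2782, 3654 and 2765 and 5719, 3659 and 4958 scaled counts and was not called (adjusted p = 0.0659), though it was without Sacral NC 2. The list took 0.192, 0.182 and 0.182 % of all counts in Injury and 0.401, 0.295 and 0.352 % in Sacral NC. Of the list 19 were called without Sacral NC 2 and 4 to 9 without any other single library. With the skeletal muscle score as a covariate 8 were called, and 1 with the macrophage score, where the median was 0.52. Among 20 angiogenic ligands 0 were called by edgeR, 9 had an unadjusted p under 0.05 and 5 were called by DESeq2. Over all genes, 4133 of 15509 had an unadjusted p under 0.05. DESeq2 called 2275 of 21094 genes, or 10.8 %. In the authors' table, with the same numbers called, 5760 genes had no adjusted p and could not be called. The DESeq2 share among genes that could be called is therefore higher than 10.8 %.

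Some vascular tone genes were called by edgeR, most of them in the contraction list. Edn1, the vasoconstrictor endothelin 1, had 191, 132 and 152 scaled counts in the Injury libraries and 399.8, 412 and 511 in Sacral NC (log2 change 1.48 ± 0.18, SE, adjusted p = 0.00625). Ece1, which matures endothelin, rose 1.53-fold and Rock1, a kinase that sustains smooth muscle contraction, 1.62-fold, whereas Gja1, the gap junction protein connexin 43, fell to 0.416 (adjusted p = 0.0335, 0.0249 and 0.0143). These were the 3 rises and the 1 fall among 24 contraction genes, against 3.26 % of all genes called higher and 3.7 % lower. Of the 24, 12 had an unadjusted p under 0.05, against 4133 of 15509 over all genes. DESeq2 called 6 of the 24 higher and 3 lower, against 5.69 % and 5.09 % of the 21094 genes it tested. Of 30 genes of the nitric oxide and cyclic GMP pathway 1 rose and 0 fell, against 3.26 % of all genes called higher and 3.7 % lower. That gene was Npr1, the receptor for atrial natriuretic peptide that makes cyclic GMP, with 414, 415 and 424 scaled counts in the Injury libraries and 874, 624 and 863 in Sacral NC (adjusted p = 0.0128). The Npr1 call was lost without Injury 3 or Sacral NC 1, the Gja1 call without Sacral NC 1, the Rock1 call without Injury 1, Injury 2, Injury 3, Sacral NC 1, Sacral NC 3 or Sham 3, and the Ece1 call when any single library other than Sacral NC 2 was left out (adjusted p up to 0.0513, 0.0613, 0.0818 and 0.0995).

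Enzymes of nitric oxide signalling were not called. Nos3, the endothelial synthase, had 428, 493 and 452 scaled counts in the Injury libraries, 707, 554 and 436 in Sacral NC and 873, 1374 and 1131 in Sham (adjusted p = 0.366). Sacral NC 3 lay within the Injury range. Nos1, the neuronal synthase, had 147, 134 and 60.9 in Injury and 266, 50.4 and 74.4 in Sacral NC, with Sacral NC 1 above and Sacral NC 2 below all Injury libraries (adjusted p = 0.857). Gucy1a1, a subunit of the nitric oxide receptor, and Pde5a, the phosphodiesterase that degrades cyclic GMP, had log2 changes of 0.27 ± 0.12 and −0.17 ± 0.48 (SE, adjusted p = 0.191 and 0.849). Pde5a had 244, 896 and 333 scaled counts in Sacral NC, so Sacral NC 2 stood above the other 2 libraries of its group.

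Contractile smooth muscle genes gave no call: 0 of 24 were called by edgeR, 0 had an unadjusted p under 0.05 and 0 were called by DESeq2 (median log2 change −0.28). Acta2, smooth muscle actin, had 30488, 23764 and 25884 scaled counts in the Injury libraries and 8236, 36507 and 12874 in Sacral NC. Myh11, smooth muscle myosin, had 31816, 22301 and 27842 and 7386, 43260 and 14318. In both genes Sacral NC 2 was the highest of the 6 libraries and Sacral NC 1 the lowest. The list took 1.28, 1.24 and 0.903 % of counts in Injury and 0.471, 1.88 and 0.648 % in Sacral NC. Without Sacral NC 2 its median was −1.13 and 5 genes were called lower, Acta2 among them, against 9.76 % of all genes called lower. Skeletal muscle genes gave 0 calls among 27 by edgeR, 1 unadjusted p under 0.05 and 2 calls by DESeq2, although their median log2 change was −3.83. Acta1, skeletal actin, had 8691, 142536 and 213 scaled counts in the Injury libraries and 43.8, 7020 and 54.8 in Sacral NC, and Ckm, muscle creatine kinase, 2951, 42840 and 160.3 and 31.8, 4295 and 84.7. The median of the muscle list was −0.54 without Injury 2 and −7.47 without Sacral NC 2. Nuclear genes of oxidative phosphorylation gave 0 calls among 76 by edgeR, 3 unadjusted p under 0.05 and 0 calls by DESeq2. Mitochondrially encoded genes gave 0 among 13 by all 3 counts, and the medians were −0.03 and −0.01.

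Interferon response genes were higher with the transplant. Of 36 tested, 21 rose and 0 fell, with a median log2 change of 0.98. Ifi44, an interferon-induced cytoplasmic protein, had 457, 486 and 364 scaled counts in the Injury libraries, 1063, 962 and 1167 in Sacral NC and 568, 708 and 601 in Sham (log2 change 1.29 ± 0.14, SE, adjusted p = 0.00534). The groups did not overlap, as in 1079 of the 1080 called genes. Rtp4, a chaperone induced by type I interferon, had 166, 179 and 133 in Injury and 596, 412 and 676 in Sacral NC (adjusted p = 0.00541), and Masp1 overlaps it. Bst2, the virus-tethering protein tetherin, rose 3.41-fold, Gbp5, an interferon-induced GTPase, 2.13-fold and Xaf1, a pro-apoptotic interferon target, 1.98-fold (adjusted p = 0.00913, 0.0109 and 0.013). Ly6e, a surface protein induced by interferon, rose from 1539, 1628 and 1547 to 5056, 3207 and 4544 scaled counts (adjusted p = 0.00625). Rtp4 and Ly6e lie outside the list of 36 and are named for their small p-values. Of these 6 genes only Xaf1 lost its call in a leave-out, that of Injury 3 (adjusted p = 0.0571). The list count was 27 without Sacral NC 2 and 3 to 15 without any other single library. With the macrophage score as a covariate 2 of the 36 were called and the median was 0.60.

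Among the genes of antigen presentation by MHC class I, 6 of 18 rose and 0 fell (median 0.64). RT1-S3, a class I gene of the rat, had 866, 1235 and 687 scaled counts in the Injury libraries, 3629, 3565 and 5447 in Sacral NC and 2132, 2346 and 2291 in Sham (log2 change 2.18 ± 0.24, SE, adjusted p = 0.00603). Class I genes are near-identical copies of each other, so the split of reads between them is uncertain. Tap2, a peptide transporter, rose 1.5-fold, Psme1, a proteasome activator, 2.01-fold, and Psmb9, an immunoproteasome subunit, 2.2-fold (adjusted p = 0.0122, 0.0131 and 0.02). Psmb9 overlaps Tap1. The Psme1 call was lost without Injury 2 or Injury 3 and the Psmb9 call without Injury 1, Injury 3, Sacral NC 1 or Sacral NC 3 (adjusted p up to 0.0571 and 0.0777). The count was 10 without Sacral NC 2 and 2 to 4 without any one of the other Injury and Sacral NC libraries. MHC class II genes gave 0 calls among 16 by edgeR, 5 unadjusted p under 0.05 and 3 calls by DESeq2. Over all genes, 4133 of 15509 had an unadjusted p under 0.05. DESeq2 called 10.8 % of 21094 genes, a total that includes genes without an adjusted p, which could not be called. Without Sacral NC 2 edgeR called 5 of the 16, against 12.9 % of all genes called higher.

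A minority of the NF-kappa-B and immediate early genes rose. Nfkbia, the inhibitor of NF-kappa-B that is itself an NF-kappa-B target, had 1232, 1333 and 1165 scaled counts in the Injury libraries, 3601, 2833 and 3487 in Sacral NC and 2041, 2269 and 2248 in Sham. Every Sacral NC library was above every Injury and Sham library, and the rise was 2.66-fold (log2 change 1.41 ± 0.11, SE, adjusted p = 0.00209). Within the 22 NF-kappa-B and inflammation genes 3 rose and 0 fell, the other two being the adhesion molecules Icam1 (1.66-fold) and Sele (1.65-fold). Klf2, a flow-responsive endothelial transcription factor, had 662, 673 and 621 scaled counts in the Injury libraries and 2135, 1443 and 2282 in Sacral NC (adjusted p = 0.00625). Klf2, Klf4, Klf6 and Zfp36, an mRNA decay factor, were the 4 rises among 25 immediate early genes (3, 2.16, 1.74 and 2.5-fold), and 0 fell. Immediate early genes also respond to the handling of tissue, and the sources used here do not give the time from death to freezing. The Icam1 call was lost without Injury 2, Injury 3, Sacral NC 1, Sacral NC 3 or Sham 3, the Sele call without Injury 2, Injury 3, Sacral NC 1, Sacral NC 3, Sham 1, Sham 2 or Sham 3, the Klf4 call without Injury 1, Injury 2, Injury 3, Sacral NC 1 or Sacral NC 3, the Klf6 call without Injury 1, Injury 2, Injury 3, Sacral NC 1, Sacral NC 3 or Sham 3 and the Zfp36 call without Injury 1, Injury 2, Injury 3, Sacral NC 1, Sacral NC 3, Sham 1 or Sham 3 (adjusted p up to 0.09, 0.132, 0.0982, 0.0798 and 0.121). Paf1 overlaps Zfp36. Without Sacral NC 2, where 12.9 % of all genes were called higher, the counts were 11 NF-kappa-B and 7 immediate early genes. Without any 1 other Injury or Sacral NC library they were 1 to 3 and 1 or 2.

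Glucocorticoid response genes gave 7 rises and 0 falls among 17, with a median log2 change of 0.84. Tsc22d3, the glucocorticoid-induced leucine zipper, had 4562, 2943 and 4898 scaled counts in the Injury libraries, 13895, 9556 and 12569 in Sacral NC and 7511, 9371 and 7352 in Sham (log2 change 1.54 ± 0.23, SE, adjusted p = 0.00913). Fkbp5, a chaperone of the glucocorticoid and androgen receptors, rose from 1949 ± 298 to 3883 ± 136 scaled counts (SD, n = 3, adjusted p = 0.00885), and Errfi1, an inhibitor of EGF receptor signalling, rose 2.08-fold (adjusted p = 0.00993). Mt2A, a metallothionein, rose 2.53-fold (adjusted p = 0.0274), a call lost without Injury 1, Injury 2, Injury 3, Sacral NC 1 or Sacral NC 3 (adjusted p up to 0.0967). The list count was 3 or 4 without any 1 Injury library, Sacral NC 1, Sacral NC 3 or Sham 3. Obp3, a secreted lipocalin related to urinary and odorant-binding proteins, had 460.3, 287 and 413 scaled counts in the Injury libraries, 6397, 3412 and 3103 in Sacral NC and 3444, 3661 and 2147 in Sham, a rise of 11.1-fold (log2 change 3.48 ± 0.35, SE, adjusted p = 0.00423). Mup4, a related lipocalin that overlaps Obp3, rose from 4.32, 2.29 and 8.12 to 88.5, 24.2 and 90.9, and its reads may come from Obp3. The Mup4 call was lost without Injury 1, Injury 2 or Sacral NC 1 (adjusted p up to 0.065). Obp3, Mup4 and Fkbp5 were the 3 rises among 15 androgen and steroid response genes.

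Other genes named for their small p-values rose. Lrg1, a secreted glycoprotein that promotes vessel growth, had 446, 400.1 and 395 scaled counts in the Injury libraries, 1218, 1199 and 1655 in Sacral NC and 1251, 1199 and 1113 in Sham (log2 change 1.71 ± 0.14, SE, adjusted p = 0.00209). Clu, the secreted chaperone clusterin, rose from 5635, 6220 and 5182 to 17083, 13108 and 14162 scaled counts (adjusted p = 0.00625). Pim3, a serine/threonine kinase, rose 2.12-fold, Sema6b, a semaphorin of axon guidance, 2.3-fold, Gimap6, a GTPase of lymphocytes and endothelium, 1.94-fold, and Cyp4b1, a cytochrome P450, 2.71-fold (adjusted p = 0.00293, 0.00551, 0.00625 and 0.00625). Nxpe1, Sh2d3c, a signalling adaptor, and Gpr146, a receptor, rose 2.19, 1.9 and 1.85-fold (adjusted p = 0.00625, 0.00625 and 0.00625). All 9 calls held with any single library left out. Of 14 adipocyte genes, the lipases Pnpla2 and Lipe rose 1.73- and 1.57-fold (adjusted p = 0.00717 and 0.0249), against 3.26 % of all genes called higher. The Lipe call was lost without Injury 2, Sacral NC 1, Sacral NC 3 or Sham 3 (adjusted p up to 0.0751). Of 32 TGF-beta and BMP genes 2 rose and 1 fell, against 3.26 % of all genes called higher and 3.7 % lower. Bmp4, a BMP ligand, rose 2.06-fold, and Chrd, a secreted BMP antagonist, fell to 0.557 (adjusted p = 0.0322 and 0.031). The Bmp4 call was lost without Injury 1, Injury 2, Injury 3, Sacral NC 1, Sacral NC 3, Sham 1 or Sham 3 and the Chrd call without Injury 1, Injury 2, Injury 3, Sacral NC 1, Sacral NC 3, Sham 1 or Sham 3 (adjusted p up to 0.107 and 0.105). Tgfb1, the profibrotic ligand TGF-beta 1, had 675, 686 and 752 and 1005, 668 and 1177 scaled counts and was not called (adjusted p = 0.172).

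The list of lymphoid tissue stroma and chemokine genes gave 5 rises and 0 falls among 21 (median 0.97). The 5 were Cxcl13, Ccl21, Ccl4, the chemokine receptor Cxcr5 and clusterin (Clu), which is not a chemokine. Cxcl13, which attracts B cells, had 272, 59.6 and 265 scaled counts in the Injury libraries, 2353, 1201 and 4270 in Sacral NC and 529, 645 and 684 in Sham (log2 change 3.71 ± 0.62, SE, adjusted p = 0.0149). Sacral NC 2 was again the lowest of its group yet above all Injury libraries. The Cxcl13 log2 change was 3.12 without Sacral NC 3, and its call was lost without Injury 3 or Sacral NC 1 (adjusted p up to 0.0516). Ccl21, a chemokine of lymphatic vessels, rose 2.88-fold (adjusted p = 0.0234), a call lost without Injury 1, Injury 2, Sacral NC 1 or Sacral NC 3 (adjusted p up to 0.0778). The list count was 13 without Sacral NC 2 and 1 to 3 without any other single Injury or Sacral NC library.

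Of 13 natural killer and cytotoxic genes tested 5 rose and 0 fell (median 1.97). Fcgr3a, the low-affinity Fc receptor CD16 of natural killer cells, monocytes and macrophages, had 48.6, 27.5 and 41.6 scaled counts in the Injury libraries, 863, 204 and 1137 in Sacral NC and 34.9, 49.4 and 31.9 in Sham (log2 change 4.22 ± 0.60, SE, adjusted p = 0.00885). Its call held with any single library left out. Klra1 and Klra5, lectin-like Ly49 receptors, had 6.48, 0 and 2.03 and 7.56, 3.44 and 5.07 scaled counts in the Injury libraries and 121, 28.2 and 196 and 99.5, 22.2 and 282 in Sacral NC (adjusted p = 0.0224 and 0.0274). Ly49 genes are near-identical copies in a cluster, so their single counts are uncertain. The Klra1 call was lost without Injury 2, Injury 3, Sacral NC 1 or Sacral NC 3 and the Klra5 call without Injury 1, Injury 2, Injury 3, Sacral NC 1, Sacral NC 3 or Sham 3 (adjusted p up to 0.094 and 0.0999), and both log2 changes were smaller without Sacral NC 3, at 4.61 and 3.43, while that of Klra1 was 6.60 without Injury 1. Klrd1, the lectin CD94 of natural killer cells, had 2, 3 and 2 reads in Injury and 1, 1 and 16 in Sacral NC. The list count was 8 without Sacral NC 2 and 1 to 3 without any 1 of the other Injury and Sacral NC libraries or Sham 3. In all, 11 genes of this list stayed under 10 reads in every library.

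Among 15 B cell genes 4 rose and 0 fell (median 0.58). Fcrl1, an Fc receptor-like protein of B cells, had 1, 0 and 0 reads in Injury, 292, 15 and 1240 in Sacral NC and 5, 26 and 70 in Sham (adjusted p = 0.0372). Cd72, a coreceptor of B cells, had 15.1, 10.3 and 15.2 scaled counts in the Injury libraries and 120.3, 51.4 and 241 in Sacral NC (adjusted p = 0.033), and Bank1, a B cell scaffold, 2.16, 1.15 and 2.03 and 16.9, 25.2 and 23.8 (adjusted p = 0.00872). The B cell markers Cd79a and Ms4a1 stayed near 0: Cd79a had 2, 2 and 2 reads in Injury and 7, 4 and 9 in Sacral NC, and Ms4a1 0, 0 and 0 and 2, 1 and 5. Ighm, the immunoglobulin mu heavy chain, had more reads, with 41, 38 and 48 in Injury and 365, 46 and 334 in Sacral NC. It was not called (adjusted p = 0.0544), though it was without Sacral NC 2. Cd3e, the T cell receptor subunit, had 2, 2 and 4 and 8, 2 and 12 reads. Fcrl1 and Cd72 were highest in Sacral NC 3 and lowest of their group in Sacral NC 2, the order also seen for macrophage genes. The Cd72 call was lost without Injury 1, Injury 2, Injury 3, Sacral NC 1, Sacral NC 3 or Sham 3 and the Fcrl1 call without Injury 1, Injury 2, Injury 3, Sacral NC 1, Sacral NC 3, Sham 2 or Sham 3 (adjusted p up to 0.11 and 0.149), and Bank1 kept its call with any single library left out. The log2 change of Cd72 was 2.61 without Sacral NC 3. The B cell count was 7 without Sacral NC 2 and 1 to 3 without any other single library. Tesk1 overlaps Cd72 and has more reads.

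Macrophage and monocyte genes were far more abundant in Sacral NC 1 and 3 than in Sacral NC 2. The list took 0.12, 0.113 and 0.128 % of all counts in Injury, 0.451, 0.154 and 0.862 % in Sacral NC and 0.246, 0.321 and 0.374 % in Sham. All 32 genes had a log2 change above 0 (median 1.84), yet 2 were called. Without Sacral NC 2, 30 were called, in a fit where 12.9 % of all genes were called higher. Cd68, a lysosomal protein of macrophages, had 137, 182 and 212 scaled counts in the Injury libraries and 654, 131 and 1512 in Sacral NC, so Sacral NC 2 was below all Injury libraries (adjusted p = 0.11). Ptprc, the pan-leukocyte protein CD45, had 244, 339 and 328 and 761, 281 and 2183, and Cd74, the class II invariant chain, 3005, 3578 and 2927 and 9720, 2624 and 11315 (adjusted p = 0.107 and 0.111). The called pair was Apoe, apolipoprotein E, with 8248, 7147 and 6521 and 26615, 10160 and 48155, and Slc11a1, a phagosome metal transporter, with 28.1, 26.4 and 30.4 and 329, 49.4 and 539 (adjusted p = 0.0454 and 0.0347). Both calls were lost when any single library other than Sacral NC 2 was left out (adjusted p up to 0.141 and 0.112), and without Sacral NC 3 the log2 changes were 1.29 and 2.69.

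Cytosolic ribosomal protein genes gave 13 rises and 0 falls among 82, with a median log2 change of 0.66. Over all genes 3.26 % were called higher. They took 3.48, 2.78 and 2.95 % of all counts in Injury and 6.75, 4.16 and 5.61 % in Sacral NC. Rps27, a protein of the small subunit, had 4594, 3922 and 4025 scaled counts in the Injury libraries and 10598, 5960 and 8296 in Sacral NC, and Rpl35, of the large subunit, 5749, 5210 and 5077 and 11830, 7247 and 9577 (adjusted p = 0.0298 and 0.0287). The list count was 70 without Sacral NC 2, 2 without Sham 1, 3 without Sham 2 and 0 without any other single library, so the calls of these genes depended on which libraries were in the fit. With the macrophage score or the skeletal muscle score as a covariate 0 were called.

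**Figure D4:**
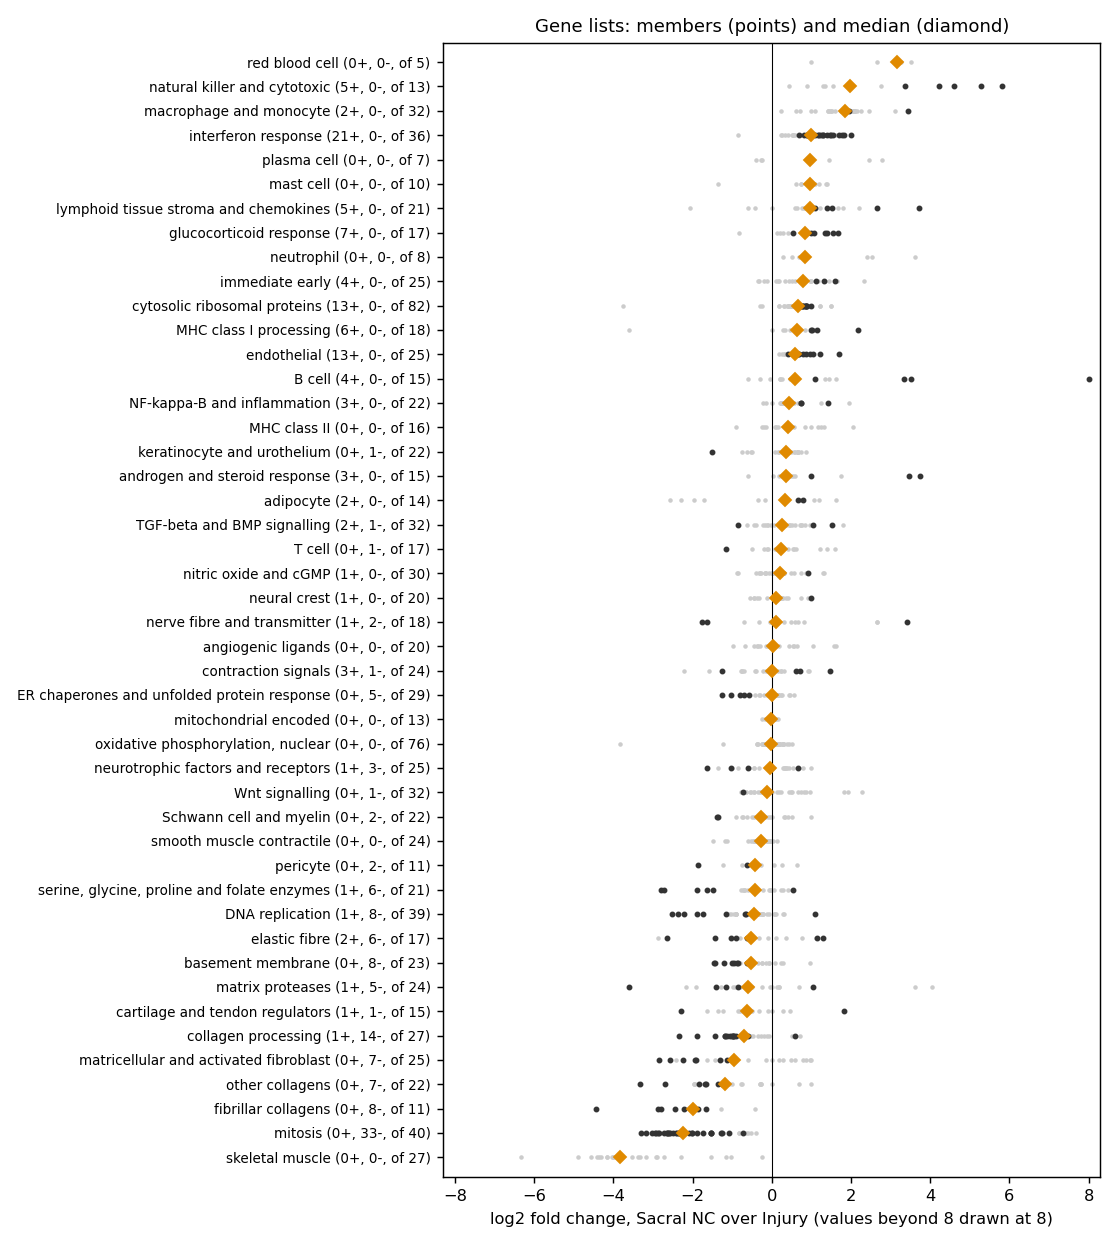
Log2 fold change of Sacral NC over Injury for every tested member of each gene list, black where called, grey where not, with the list median as a diamond; brackets give the members called higher, called lower and tested. Mitosis, with 33 of 40 called lower, and fibrillar collagens lie to the left, while interferon response genes, with 21 of 36 called higher, and endothelial genes lie to the right.

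**Figure D5:**
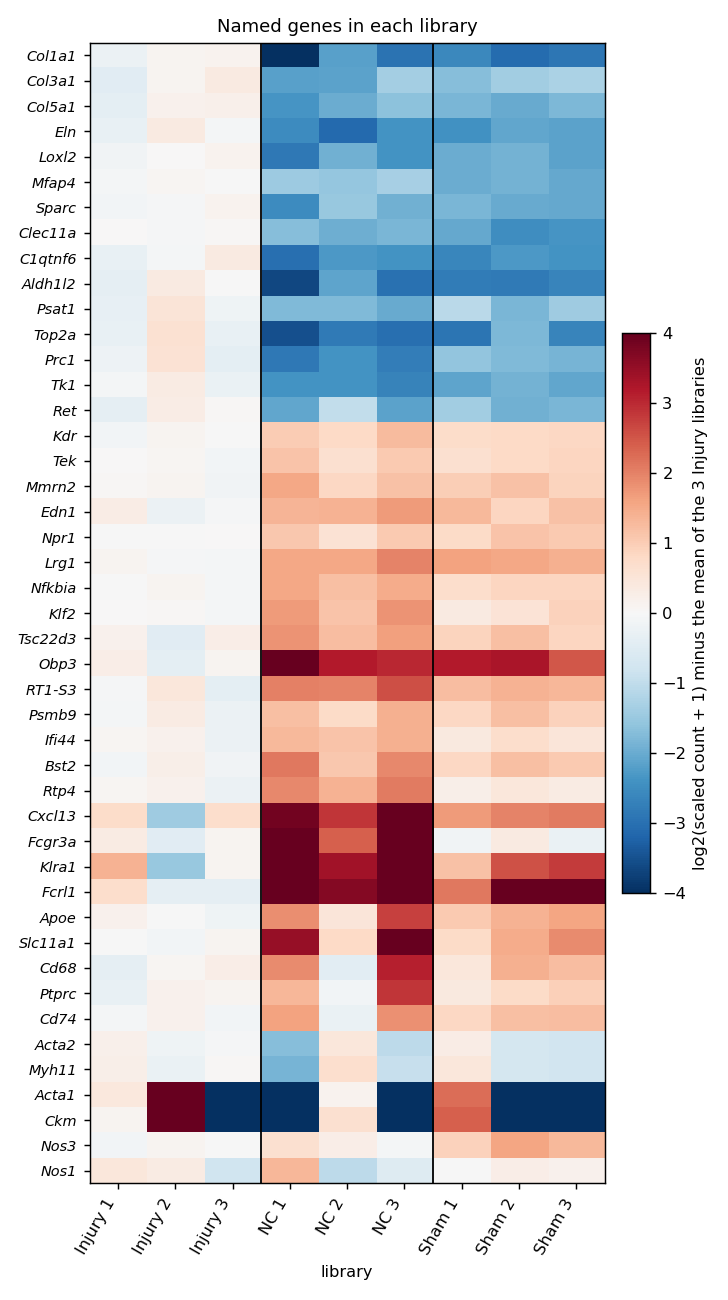
Named genes in each of the 9 libraries as log2 of the scaled count plus 1, relative to the mean of the 3 Injury libraries, with red above and blue below and values past the ends of the colour bar drawn at its ends. Matrix and mitotic genes are low and endothelial and interferon genes high in all 3 Sacral NC libraries, whereas Cd68, Ptprc and Cd74 are high in Sacral NC 1 and 3 but not in Sacral NC 2.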

How the data were processed

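RNA of rat penile tissue was sequenced in 9 libraries, 3 per group. The authors deposited, per the file headers, raw read counts of every gene in 3 tables, 1 for each pair of groups. Per the file headers the tables further carry the mean of the counts over each group (a read signal, not used in the tests), made by the authors, and columns of the authors' comparison, namely log2 fold change, a test score, p-value and adjusted p-value. The submitters' processing notes name the aligner HISAT2 2.0.5 and the mouse build GRCm38.p6, while all 21124 identifiers are rat and 0 are of another species. The sources used here name no rat build, counting tool or strand setting. Overlapping or near-identical genes therefore have uncertain counts. Of 156 genes considered for the text, 16 are overlapped by a gene with at least 10 % of their reads, and not all are flagged above. The counts of a library repeated between tables were compared, 190116 values in all, with 0 differences. No sequence is printed and the planned search of promoters for motifs was not run, because the reference sequences at hand are of another species.

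The test was the quasi-likelihood F-test of edgeR 4.0.16 under R 4.3.3 (TMM scaling, default filter on low counts, robust fit, Benjamini-Hochberg adjustment). The model used all 9 libraries with 1 mean for each group, leaving 6 residual degrees of freedom, and the contrast was Sacral NC minus Injury. Standard errors (SE) come from the F statistic. Total counts were 15442190 to 18283418 per library, and genes with few reads carry large counting error. The fit was also run on simulated counts, drawn independently for each gene and library. These hold no shift in the tissue content of a library. They therefore cannot speak to how far the calls depend on single libraries, and their outcome is not reported here. Members of 47 gene lists are described by counts and medians, with no test of a list.

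The comparison, the lists and the alternatives were chosen with earlier results of these data known. Genes named are the 15 with the smallest p in each direction among called protein-coding genes with a proper symbol, 50 or more scaled counts on average in whichever group was higher, and groups that do not overlap. Added to these are up to 4 called members of each list, or 2 where none was called, and a fixed set of genes of erectile, nerve and immune biology. The text prints a selection of these 181 genes, and genes outside the rule are said to be. Some genes are not reported here.

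Alternatives were RLE size factors, TMM without collagen genes, no low-count filter, a minimum of 10 counts in each library of some group, DESeq2 1.42.0 on unfiltered counts, only the 6 libraries, the replicate number as a block, skeletal muscle or lymphocyte scores (mean log2 CPM, computed with a prior count of 2) as covariates, leaving out the libraries with over 0.1 % of counts in muscle genes, and leaving out each library. A macrophage score as a covariate was added after seeing the data.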

Additional observations from a re-analysis of the deposited data

How the results depend on the processing

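Against 506 genes called higher and 574 lower, DESeq2 called 1201 and 1074, the numbers also in the authors' deposited table, where 1075 of the 1080 genes called here had an adjusted p under 0.05. The counts were 67 and 172 with only the 6 libraries, 185 and 312 with the muscle score, 89 and 134 with the lymphocyte score, 55 and 85 with the macrophage score, and 31 and 28 without the libraries rich in muscle, which leaves 1 Injury library that is assumed to vary like the other groups. Leaving out single libraries gave 98 to 2033 higher and 180 to 1541 lower. RLE factors, TMM without collagen, no filter and the stricter filter stayed within 1.5-fold of the reported counts.

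The replicate number as a block gave 190 higher and 281 lower. Same-numbered libraries had correlations of deviations of −0.012, 0.264 and 0.346. Sacral NC 2 and Sacral NC 3 correlated best with the Injury library of their own number, Sacral NC 2 nearly as well with Injury 1 (0.259). Sacral NC 1 correlated best with Injury 3 (0.213). The labels state no pairing, and the numbers were not taken to pair the libraries, though these correlations do not exclude it.

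Of the named genes tested, 136 were called, and in all 136 the direction held under the alternatives run. The call held for 83 with each library left out and for 16 under all alternatives. The log2 changes that turned sign belong to genes that were not called. With the macrophage score they were −0.30 for Cd68, −0.091 for Ptprc, −0.039 for Cd74, −0.38 for Nos1, 0.57 for Pde5a, 0.26 for Acta2, 0.44 for Myh11 and −0.0088 for Tgfb1. With the lymphocyte score they were −0.45 for Nos1, 0.47 for Pde5a, 0.15 for Acta2 and 0.34 for Myh11, and with the muscle score 0.035 for Pde5a and 0.010 for Ckm. Over single libraries left out Nos1 ran from −0.87 (without Sacral NC 1) to 0.58 (without Sacral NC 2), Pde5a from −0.93 (without Sacral NC 2) to 0.16 (without Sacral NC 1) and Myh11 from −1.33 (without Sacral NC 2) to 0.077 (without Sacral NC 1). Each score is the mean of its own list, so the change of a member of that list shrinks by construction when the score is a covariate. The causes of the other sign changes were not tested.

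The immune and skeletal muscle differences kept their direction in every alternative run. Over single libraries left out the muscle difference ran from −1.78 to −0.0245 percentage points and the immune difference from 0.221 to 0.628. Genes with few reads, such as Th and Vip, are limited by depth.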

Other observations

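Outside the groups described above, the keratin Krt13 of stratified epithelium fell from 138, 190.3 and 245 scaled counts in Injury to 66.6, 73.6 and 61 in Sacral NC (adjusted p = 0.0101), the only gene called among 22 keratinocyte and urothelium genes. Of 32 Wnt genes only the secreted modulator Dkk3 was called. Both single calls compare with 6.96 % called among all genes tested. Dkk3 had 4754, 4738 and 4497 scaled counts in the Injury libraries and 2766, 3280 and 2328 in Sacral NC (adjusted p = 0.0459). Its call was lost without Injury 1, Injury 2, Injury 3, Sacral NC 1, Sacral NC 3 or Sham 3 (adjusted p up to 0.134). The 5 red blood cell genes tested had a median log2 change of 3.16, 5 of them had an unadjusted p under 0.05, 0 were called by edgeR and 3 by DESeq2.

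The following genes were chosen after their values were seen. RGD1562420, named only by a placeholder symbol (ENSRNOG00000005826, chromosome 6, 139450713 to 139451582 on an unnamed rat build), had 2, 0 and 0 reads in Injury, 236, 130 and 352 in Sacral NC and 111, 120 and 124 in Sham (adjusted p = 0.00274), and it kept its call with each library left out. Aard had 45.4, 33.2 and 31.5 scaled counts in the Injury libraries, 1.99, 0 and 1.03 in Sacral NC and 7.16, 1.83 and 5.63 in Sham (adjusted p = 0.00752), and its log2 change was −5.86 without Sacral NC 1. Or2b4, an olfactory receptor gene, had 3312, 37.8 and 2386 scaled counts in the Injury libraries and 28.8, 49.4 and 36.2 in Sacral NC. Injury 2 was at the Sacral NC level while Injury 1 and 3 were far above it, which makes Or2b4 the 1 called gene of 1080 in which the groups overlap (adjusted p = 0.0455). That call was lost without Injury 1, Injury 3, Sacral NC 1, Sacral NC 2, Sacral NC 3, Sham 1, Sham 2 or Sham 3 (adjusted p up to 0.176).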
